A study of Mus musculus with 49 samples.

Results

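Most of the genes described here encode core parts of the spliceosome or the SR and hnRNP proteins, which steer the choice of splice sites. They were chosen by symbol alone, so that a few with another role were included, among them *Lsm10* and *Lsm11* of histone mRNA processing and *Lsm14a* of cytoplasmic RNA granules. A mouse gene belonged to the set if its symbol began with *Snrp*, *Sf3a* or *Sf3b*, *Prpf*, *Srsf*, *Lsm* or *Hnrnp* (with a digit after the stem for all but *Snrp* and *Hnrnp*) and if its longest transcript had a mean of at least 1 RPKM (reads per kilobase of transcript, scaled to the reads of the library) over all libraries. Of 23992 symbols in the files, 76 matched a stem and 74 reached the level. *Prpf40b* (mean 1.65 RPKM) and *Lsm11* (2.87) lay just above the threshold. *Srsf12* (0.46) and *Snrpn* (0.23) fell below it and are not described further. All 74 genes also passed the filter on low counts, so none was lost before testing.

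The spliceosome removes introns from pre-mRNA. It is built on small nuclear ribonucleoproteins (snRNPs), in which an snRNA carries a ring of Sm or LSm proteins. The SF3A and SF3B complexes belong to the U2 snRNP, which recognises the branch point, and PRPF proteins act mainly in the tri-snRNP and in activation of the assembled complex. SR proteins mostly favour the use of nearby exons and hnRNPs often oppose it. Many SR genes carry an alternative exon with a premature stop codon, a "poison exon", whose inclusion sends the mRNA to nonsense-mediated decay. T cells that leave quiescence enlarge and produce more RNA, and a switch in splicing of *Ptprc* (CD45) that involves hnRNPLL is a known mark of T cell activation.

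RNA-seq was performed on CD8+ T cells purified from spleens of mice that had been backcrossed to C57BL/6J. The cells were kept in culture with human recombinant IL-2 (500 IU/ml) for 0, 4, 24 or 48 hr. In the *Stat5a* line, cells came from homozygous knock-in mice whose STAT5A carries phenylalanine in place of the tyrosine that IL-2 signalling phosphorylates (Y694F, *Stat5a* KI) and from WT littermates. The *Stat5b* line held the corresponding STAT5B mutants (Y699F, *Stat5b* KI) with their own WT littermates, and in both lines the allele is present in every cell of the animal, so the cells also developed with it. The 16 groups of line, genotype and time had 3 libraries each, except *Stat5a* KI at 4 hr, where 2 were used. IL-2 was the only agent, and the 0 hr groups had none. No group was cultured without IL-2, so IL-2 and time in culture cannot be told apart in comparisons with 0 hr. The labels do not say whether libraries of a group came from different mice, so that p-values measure only the spread between these libraries.

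The 47 libraries held 17369112 to 60200653 reads on the longest transcripts (median 41410666). Replicate 3 of *Stat5a* KI at 4 hr was left out because only 1028515 reads, 5.68% of its mapped reads, fell on these transcripts, against 44.9% to 84.4% in the other 47 libraries. The library with 17369112 reads and 44.9% was replicate 2 of WT at 4 hr in the *Stat5a* line. It also stood apart from its group for many genes. *Hnrnpf*, which encodes an RNA-binding splicing regulator, had 145.7 RPKM there and 325 and 314 in the other 2 libraries, and *Srsf1* had 26.8 against 57.2 and 55.0. Counts and fold changes at 4 hr in that line are therefore given with and without this library. Markers of CD8+ T cells had a summed level of at least 1322 RPKM in all 47 libraries, as the label states. In bulk RNA, fewer cells of a type and less RNA per cell cannot be told apart.

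The set took up a larger share of the transcriptome in WT cells after 48 hr of IL-2 than before culture. Its summed RPKM was 1.29% to 1.34% of the total at 0 hr in WT cells of the *Stat5a* line and 1.81% to 1.92% at 48 hr. In WT cells of the *Stat5b* line the share went from 1.21% to 1.28% at 0 hr up to 1.95% to 1.96% at 48 hr. At 4 hr the share was 1.30% to 1.56% and 1.18% to 1.22% in WT cells of the *Stat5a* and *Stat5b* lines, which overlapped 0 hr in both, and at 24 hr it was 1.48% to 1.61% and 1.52% to 1.56%, above 0 hr without overlap. In *Stat5a* KI cells at 48 hr it was 1.47% to 1.55%, and in *Stat5b* KI cells 1.38% to 1.45%, so that neither KI group overlapped its WT group. The highest group mean of a gene over the 4 times was at 48 hr for 62 and 60 of the 74 genes in WT cells of the *Stat5a* and *Stat5b* lines, and for 47 and 52 in the KI cells. The share of all genes with this peak is not given, so these counts do not compare the set with all genes.

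Levels differed widely within each stem. By mean RPKM over the 47 libraries, *Hnrnpf* (323), *Hnrnpa1* (248) and *Hnrnpk* (245), all encoding abundant hnRNPs that bind pre-mRNA, led the *Hnrnp* genes. Among SR genes *Srsf5* (286), *Srsf2* (147.5) and *Srsf3* (79.1) were highest. The *Snrp* genes were led by *Snrpg* (224), *Snrpd3* (156) and *Snrpb* (125.4), which encode proteins of the Sm ring. *Sf3b1* (101), *Sf3b2* (84.6) and *Sf3b3* (53.5), all subunits of SF3B, came first in their stem. *Lsm4* (63.0) and *Lsm5* (50.8), members of the LSm ring on U6 snRNA, stood with *Lsm14a* (50.1), a translational repressor of cytoplasmic RNA granules, at the top of the *Lsm* genes. *Prpf8* (60.6), which encodes the protein at the catalytic centre of the spliceosome, led the *Prpf* genes, followed by *Prpf38b* (45.8) and the kinase gene *Prpf4b* (28.2).

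At 48 hr of IL-2, WT cells expressed most of these genes above the 0 hr level. In the *Stat5a* line 57 of the 74 genes rose and 8 fell (edgeR's quasi-likelihood test, adjusted p at most 0.05), where 34.1% of all 15566 genes tested rose and 37.7% fell. The *Stat5b* line gave 58 that rose and 8 that fell, against 33.1% and 36.8% of all genes. The 57 genes that rose in the first line all rose in the second, and the same 8 genes fell in both. The overlap of the lines among all genes is not given, here or below. Such overlaps therefore do not compare the set with all genes. When 1 library was left out, 6 to 8 genes fell in the *Stat5a* line and 4 or 5 in the *Stat5b* line. The median log2 fold change of the set was 0.67 and 0.79 (*Stat5a* and *Stat5b* lines), while that of all genes was −0.12 and −0.13. On the authors' RPKM scale the median of all genes shifted to 0.24 and 0.18, and that of the set exceeded it by 0.62 and 0.73, with 59 genes higher and 5 lower in each line by limma. At least 2-fold rises were found for 20 genes in the *Stat5a* line (14.3% of all genes) and for 26 in the *Stat5b* line (14.6%).

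All 11 *Snrp* genes, which encode the Sm ring and the proteins specific to U1 and U2 snRNPs, rose in both lines, with median log2 fold changes of 0.87 and 1.0002. Of the 8 *Sf3a* and *Sf3b* genes 7 rose (medians 0.89 and 0.82), and of the 12 *Lsm* genes 10 rose (1.01 and 1.03). The 13 *Prpf* genes were more divided, with 9 that rose and 2 that fell in each line (medians 0.46 and 0.44). Of the 10 *Srsf* genes 6 rose and 1 fell (0.66 and 0.78). The 20 *Hnrnp* genes split into 14 and 15 that rose and 3 that fell (0.46 and 0.56).

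**Figure D1:**
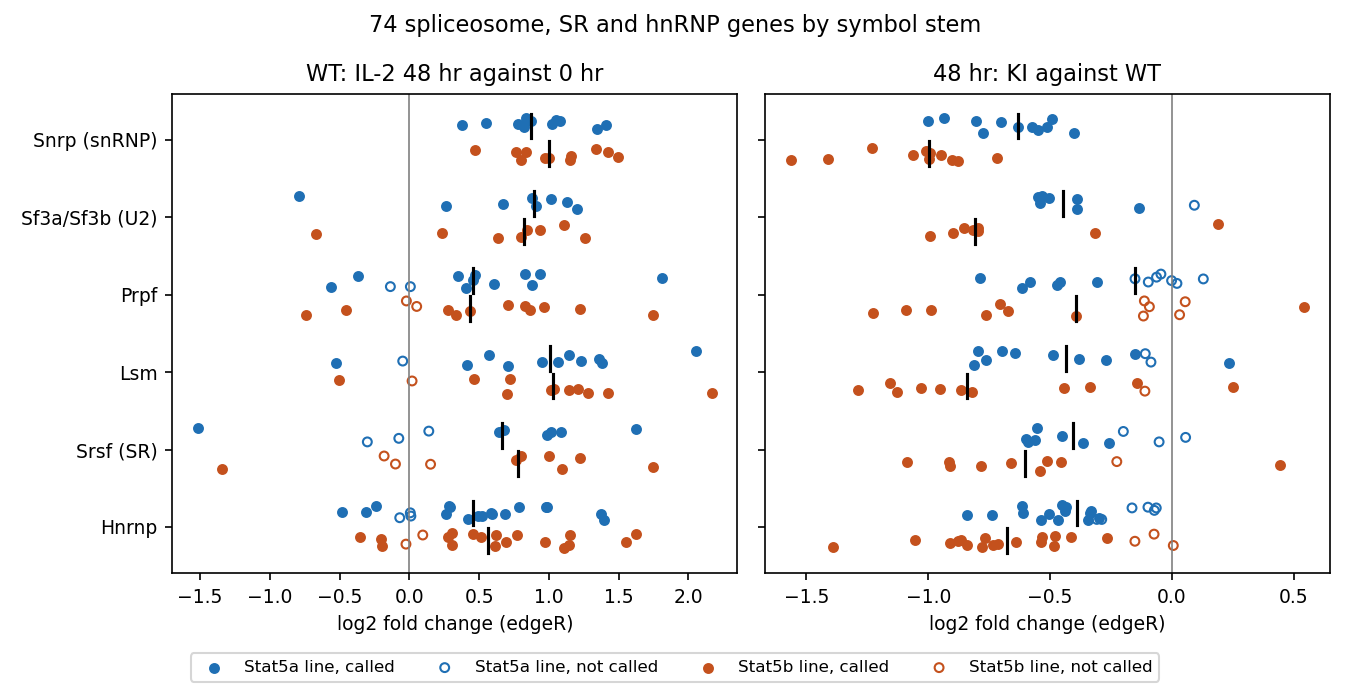
The log2 fold change of each of the 74 genes is plotted by symbol stem, for WT cells at 48 hr against 0 hr (left) and for KI against WT at 48 hr (right). Filled points were called by edgeR at an adjusted p of at most 0.05, and black bars mark the median of each stem; the bars lie right of 0 on the left and left of 0 on the right for all 6 stems in both lines.

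*Lsm2*, at chr17:34981854-34985891 (GRCm38, as are all positions here), encodes a protein of the U6 LSm ring and had the largest rise of the set. In WT cells of the *Stat5a* line it had 8.35, 8.22 and 10.0 RPKM at 0 hr and 38.7, 45.9 and 42.9 at 48 hr. The *Stat5b* line gave 9.73, 10.5 and 9.75 at 0 hr and 50.9, 48.5 and 52.9 at 48 hr. Every 48 hr library exceeded every 0 hr library by a wide margin. The log2 fold changes were 2.05 ± 0.12 (SE) and 2.17 ± 0.12, with adjusted p values of 8.4e-18 and 1.8e-18.

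*Prpf31* (chr7:3629985-3642485), whose product bridges U4 and U5 in the tri-snRNP, went from 8.49, 9.50 and 10.97 RPKM to 36.2, 41.3 and 40.0 in WT cells of the *Stat5a* line. *Srsf1* (chr11:88046499-88053757), the founding SR gene, went from 27.1, 24.9 and 33.3 to 91.9, 104 and 108.3 in the same cells. In neither gene did the times overlap. The log2 fold changes of *Prpf31* were 1.81 and 1.75, and those of *Srsf1* were 1.63 and 1.75 (SE from 0.066 to 0.10).

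The 8 genes that fell in WT cells of both lines were *Srsf5*, *Sf3b1*, *Prpf39*, *Prpf40b*, *Hnrnpdl*, *Hnrnph1*, *Hnrnph2* and *Lsm14b*. Only *Srsf5* (chr12:80945495-80950507), the most abundant SR gene here, fell by more than 2-fold. It had 467, 493 and 495 RPKM at 0 hr in WT cells of the *Stat5a* line, against 181, 185 and 221 at 48 hr. The *Stat5b* line gave 441, 445 and 463 against 198, 204 and 197. Times did not overlap in either line, and the log2 fold changes were −1.51 ± 0.07 and −1.35 ± 0.07. *Sf3b1* (chr1:54985169-55027501), the largest subunit of SF3B, was the one gene of its stem to fall, by 0.79 and by 0.67 on the log2 scale.

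At 4 hr the set was divided, with 24 genes higher and 23 lower in WT cells of the *Stat5a* line (29.5% and 28.9% of all genes) and 16 higher and 21 lower in the *Stat5b* line (25.1% and 24.5%). Without replicate 2 of WT at 4 hr the first of these splits was 17 and 34, with all 48 libraries it was 19 and 10, and with only the groups compared 7 and 8. With all 48 libraries the second was 9 and 8. For these other fits the shares of all genes are not given. The change in the splits therefore cannot be assigned to the set rather than to all genes. On the RPKM scale the *Stat5b* line had 20 higher and 5 lower, with the median of all genes at 0.16. At 24 hr 41 genes were higher and 12 lower in the *Stat5a* line (30.1% and 28.9%), and 48 were higher and 10 lower in the *Stat5b* line (29.5% and 30.1%). RPKM values gave 49 and 5, and 55 and 4, at 24 hr. The shares of all genes on that scale are not given, so these counts do not compare the set with all genes.

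*Lsm10* and *Lsm11* encode LSm proteins of the U7 snRNP, which processes histone mRNA and not introns. *Lsm10* had 5.16, 4.71 and 4.28 RPKM at 0 hr in WT cells of the *Stat5b* line, 14.2, 14.4 and 14.7 at 4 hr and 12.8, 13.4 and 12.7 at 48 hr. All 3 libraries at 4 hr exceeded those at 0 hr and also those at 48 hr. In WT cells of the *Stat5a* line it had 12.5, 4.27 and 11.3 at 4 hr, replicate 2 being the low one, and 12.05, 13.2 and 13.1 at 48 hr, so that a level at 4 hr above that at 48 hr was not found there. Its log2 fold change at 4 hr was 1.43 ± 0.14 in that line and 1.09 ± 0.14 in the *Stat5a* line (1.29 without WT replicate 2 at 4 hr), and *Lsm11* gave 1.30 and 1.15 (1.43 without it). *Prpf40b*, a U1-associated factor at low level, had a log2 fold change of 1.20 at 4 hr in the *Stat5a* line (0.982, 1.23 and 1.26 RPKM at 0 hr, 2.80, 2.01 and 3.01 at 4 hr), or 1.14 without that library, although it had fallen below the 0 hr level by 48 hr. *Srsf5* had fallen at 4 hr, with log2 fold changes of −1.03 and −1.07 in the *Stat5a* and *Stat5b* lines and −1.07 in the former without replicate 2. *Hnrnph1*, which encodes a G-tract-binding splicing regulator, had −0.69 and −0.89, and −0.78 in the former without it. *Hnrnpa0*, an hnRNP gene of the A/B type, had 116.5, 127.8 and 137.4 RPKM at 0 hr in WT cells of the *Stat5a* line and 105.4, 31.3 and 111.03 at 4 hr. Its log2 fold change of −0.69 was −0.41 without the low library, replicate 2, and remained past the threshold (adjusted p 7.1e-06). Also among the largest changes at 4 hr were *Prpf31* (0.76 in the *Stat5b* line) and *Srsf6* (−0.57 in the *Stat5b* line). At 24 hr the largest rises were those of *Prpf31* in the former line (1.48) and of *Lsm2* in the latter (1.53).

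**Figure D2:**
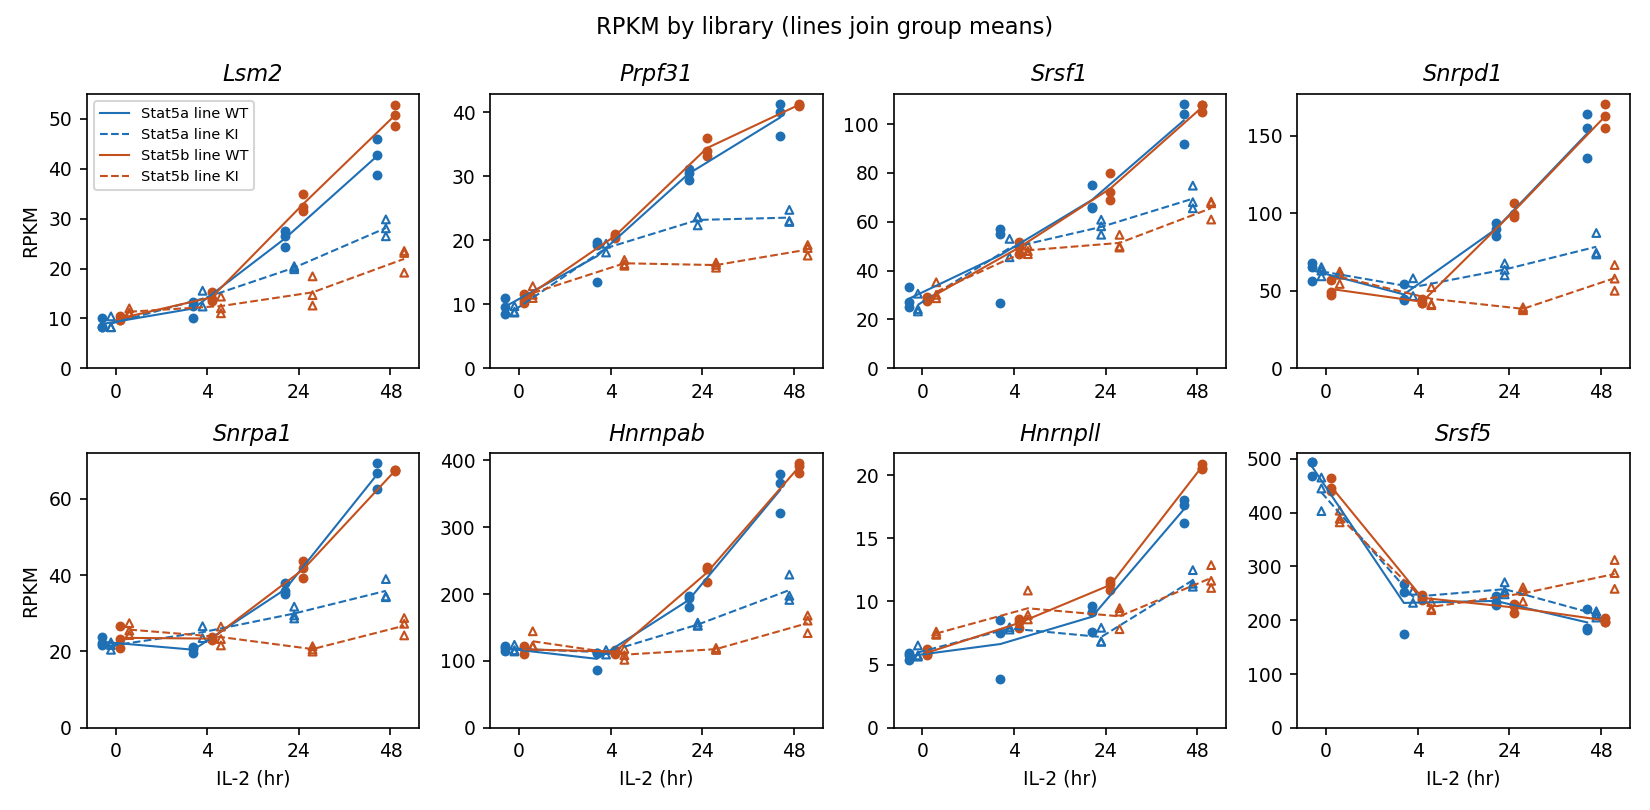
RPKM of 8 genes is plotted against hours of IL-2, with a point for each library, lines through group means, filled circles for WT and open triangles for KI. In 7 panels the WT points at 48 hr are the highest, as for *Lsm2* at 38.7 to 45.9 against 26.5 to 29.9 in KI cells of the *Stat5a* line, and in the panel of *Srsf5* the points at 0 hr are.

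Before culture the KI cells differed little in these genes. No gene of the set was called between *Stat5a* KI and WT cells at 0 hr by edgeR, nor by DESeq2 or limma, where 3.44% of all genes were called in either direction by edgeR, and 5 of the 74 had an unadjusted p under 0.05. In the *Stat5b* line 8 genes were called at 0 hr, 1 higher and 7 lower, against 13.6% and 9.26% of all genes. *Hnrnpll* was the higher one, at 7.61, 7.42 and 7.36 RPKM in KI and 6.23, 5.83 and 5.77 in WT (log2 fold change 0.27, adjusted p 0.036). *Prpf40b* (−0.41), *Srsf5* (−0.26) and *Prpf6* (−0.22), a tri-snRNP gene, were the lowest. None of the 74 passed on the RPKM scale at 0 hr in this line, and 2 to 7 were called when 1 library was left out.

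At 4 hr the KI comparisons were uncertain. *Stat5a* KI cells, with 2 libraries, had 7 genes higher and 14 lower, against 11.9% and 12.7% of all genes. That count was 3 without WT replicate 2 (*Prpf4b*, *Srsf9* and *Srsf10*), and it was 0 without KI replicate 1 and 14 without KI replicate 2, where the 1 KI library left was assumed to vary like the other groups. Limma on RPKM gave 34 higher and 2 lower, so no direction is given for the set. With all libraries the largest values were 0.58 for *Snrpb*, 0.51 for *Lsm10* and 0.43 for *Snrpd2*, and −0.94 for *Prpf38b*, −0.65 for *Srsf11* and −0.60 for *Prpf4b*. Without WT replicate 2 they were 0.21, 0.31 and 0.21 (adjusted p 0.079, 0.094 and 0.15) and −0.12, −0.0036 and −0.35 (adjusted p 0.50, 0.98 and 0.021), so that of these 6 genes *Prpf4b* alone passed. *Snrpb* had 94.5, 17.5 and 93.8 RPKM in WT and 122.1 and 107.05 in KI, and *Prpf38b* had 47.2, 95.3 and 45.4 in WT and 44.8 and 45.0 in KI. Replicate 2 of WT was the one library apart in both genes. In the *Stat5b* line 13 genes were lower and 0 higher in KI at 4 hr (12.8% and 14.5% of all genes), with 5 to 10 when 1 library was left out and 1 on the RPKM scale. *Prpf31* was the lowest there, at 16.3, 16.9 and 16.0 RPKM in KI and 20.3, 21.0 and 20.7 in WT, with no overlap (−0.45 ± 0.06, adjusted p 1.7e-06). *Lsm11* (−0.44) and *Srsf6* (−0.38) came next.

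The deficit in *Stat5a* KI cells at 24 hr covered 24 genes, with 1 gene higher, where 9.01% of all genes were lower and 9.49% higher. The 25 genes called were 13 without replicate 2 of WT at 24 hr, 12 with limma, 9 with all 48 libraries and 41 when only the groups compared were fitted. The median of the set was −0.18. *Stat5b* KI cells had 57 genes lower and 0 higher at this time, against 26.3% and 24.1% of all genes, and a median of −0.51. The 24 genes lower in *Stat5a* KI were all among those 57. *Snrpd1*, which encodes the D1 protein of the Sm ring, was the lowest in both lines, at −0.56 and −1.43. In the *Stat5b* line its RPKM was 97.8, 99.6 and 106.3 in WT cells and 38.2, 39.3 and 37.4 in KI cells. The WT cells had thus left their 0 hr level of 46.9 to 57.2 behind, and the KI values lay below that level. *Hnrnpa3* (−0.49) and *Prpf31* (−0.46) followed in the *Stat5a* line, and *Lsm2* (−1.14) and *Prpf31* (−1.12) in the *Stat5b* line. *Lsm14b*, a paralog of *Lsm14a*, was the higher gene in *Stat5a* KI (0.24), where 0 were called higher without KI replicate 2 at 24 hr.

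At 48 hr most of the set was lower in both KI lines. *Stat5a* KI cells had 54 genes lower and 1 higher, against 22.8% and 21.5% of all genes, with a median of −0.45 where the median of all genes was 0.04. *Stat5b* KI cells had 60 lower and 4 higher, against 30.5% and 33.1%, with a median of −0.77 where that of all genes was 0.10. All 54 genes lower in *Stat5a* KI were also lower in *Stat5b* KI, with no such overlap given for all genes. By stem, in *Stat5a* and *Stat5b* KI, 11 and 11 of 11 *Snrp* genes were lower, 7 and 7 of 8 *Sf3a* and *Sf3b*, 9 and 10 of 12 *Lsm*, 7 and 8 of 10 *Srsf*, 14 and 17 of 20 *Hnrnp*, and 6 and 7 of 13 *Prpf*. The medians of the stems ran from −0.15 for *Prpf* to −0.63 for *Snrp* in *Stat5a* KI, and from −0.39 for *Prpf* to −0.997 for *Snrp* in *Stat5b* KI.

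*Snrpd1* had the largest deficit. Its RPKM at 48 hr was 135.3, 164 and 155 in WT and 87.2, 74.4 and 73.4 in *Stat5a* KI cells, and 163, 170 and 155 in WT and 57.8, 66.6 and 49.96 in *Stat5b* KI cells. The genotypes did not overlap, and the KI values of the *Stat5b* line were close to the WT level at 0 hr. The log2 fold changes were −1.002 ± 0.14 (adjusted p 5.7e-07) and −1.56 ± 0.15 (adjusted p 1.3e-11). *Snrpa1* (chr7:66060336-66074587), the U2 A′ gene, followed with −0.94 and −1.41. It had 62.5, 69.5 and 66.7 RPKM in WT and 39.0, 34.2 and 34.4 in KI cells of the *Stat5a* line. *Hnrnpab* (chr11:51600100-51606881), an hnRNP gene of the A/B type, came next with −0.84 and −1.39, and in the *Stat5b* line had 392, 381 and 395 RPKM in WT against 160, 168 and 141.7 in KI. Both genes were separated without overlap in both lines.

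Genes that rose at least 2-fold in WT cells of both lines were 19 in number. Of these, 17 were lower in *Stat5a* KI and 18 in *Stat5b* KI at 48 hr, where 22.8% and 30.5% of all genes were lower. The share among all genes with such a rise is not given. Since the rise in WT and the KI comparison both use the WT libraries at 48 hr, the values are set side by side. No relation between them was tested. The exception in both lines was *Lsm10* (−0.11 in each, adjusted p 0.54 and 0.47), joined in *Stat5a* KI by *Lsm11* (−0.09, adjusted p 0.68). *Lsm10* had 12.05, 13.2 and 13.1 RPKM in WT and 12.9, 11.95 and 11.98 in KI cells of the *Stat5a* line, so the ranges overlapped. Among the others, *Lsm7*, a gene of the LSm rings, had −0.70 and −1.16, and *Sf3a3* of the U2 snRNP had −0.54 and −0.90.

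Few genes were higher in KI cells at 48 hr. In the *Stat5a* line 0 were called higher without KI replicate 2 or without KI replicate 3, and leaving out any other library left 1. In the *Stat5b* line 3 were called higher when 1 library was left out, but 1 without KI replicate 3. *Lsm14b* was higher in both lines (0.23 and 0.25), with 11.3, 12.9 and 12.1 RPKM in WT and 13.9, 15.2 and 14.99 in KI cells of the *Stat5a* line. *Prpf39* (0.54), a U1-associated factor, *Srsf5* (0.44) and *Sf3b1* (0.19) were higher in *Stat5b* KI. *Srsf5* had 198, 204 and 197 RPKM in WT and 288, 258 and 312 in KI cells of that line, without overlap. In the *Stat5a* line its values of 181, 185 and 221 in WT and 211, 205 and 217 in KI overlapped. All 4 of these genes were among the 8 that fell with IL-2 in WT cells. Both comparisons use the WT libraries at 48 hr, and a relation between them was not tested.

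The IL-2 response itself (48 hr against 0 hr) was weaker in KI cells, tested as an interaction of genotype and time. In the *Stat5a* line the difference in response was negative (smaller or more negative in KI) for 41 genes and positive for 1. Of all genes 16.2% and 11.8% differed in these directions, and the median of the set was −0.42. With all 48 libraries 22 genes were called there, all of them negative. Leaving out 1 library gave 0 to 2 genes with a positive difference in that line. The *Stat5b* line gave 54 negative and 4 positive, against 25.6% and 23.8%, with a median of −0.75. The 4 positive genes were *Srsf5*, *Prpf39*, *Lsm14b* and *Sf3b1*, all of which had fallen in WT cells. Mean RPKM of *Srsf5* went from 450 to 200 in WT and from 391 to 286 in KI cells of that line, a smaller fall in KI. *Snrpd1* (−0.97 and −1.71), *Snrpa1* (−0.85 and −1.48) and *Hnrnpab* (−0.81 and −1.47) again had the lowest values. These tests share the 48 hr libraries with the comparisons of genotype at 48 hr.

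The effect at 48 hr was compared between the lines directly. The log2 fold change of KI against WT was lower in the *Stat5b* line in 65 of the 74 genes. Of all 15566 genes tested, 7816 had a positive difference between lines, and their median difference was 0.0021. In 19 genes the difference passed as more negative in the *Stat5b* line and in 1 as more positive, against 7.83% and 3.20% of all genes, and the median difference was −0.26. By stem, the 19 comprised 4 *Sf3a* and *Sf3b*, 4 *Prpf*, 3 *Snrp*, 3 *Lsm*, 3 *Srsf* and 2 *Hnrnp* genes. *Lsm2* (−0.64 ± 0.16, adjusted p 0.0065), *Snrpa* (−0.60 ± 0.13, adjusted p 0.0018), which encodes the U1 A protein, and *Hnrnpab* (−0.55 ± 0.10, adjusted p 0.00052) had the largest differences. *Srsf5* was the gene with the opposite sign (0.39). *Snrpa* (chr7:27187006-27196271) had 52.9, 50.8 and 49.8 RPKM in *Stat5a* KI against 73.8, 81.2 and 74.6 in WT. In *Stat5b* KI it had 38.0, 39.7 and 32.7 against 80.2, 81.3 and 83.5, so that the WT groups were close and the KI groups separated. The lines were not littermates of each other, and a difference between them in anything other than the allele cannot be told apart from the allele. The number that passed was 2 with all 48 libraries and 7 or 9 with limma on RPKM, and reached 45 when only the groups compared were fitted.

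**Figure D3:**
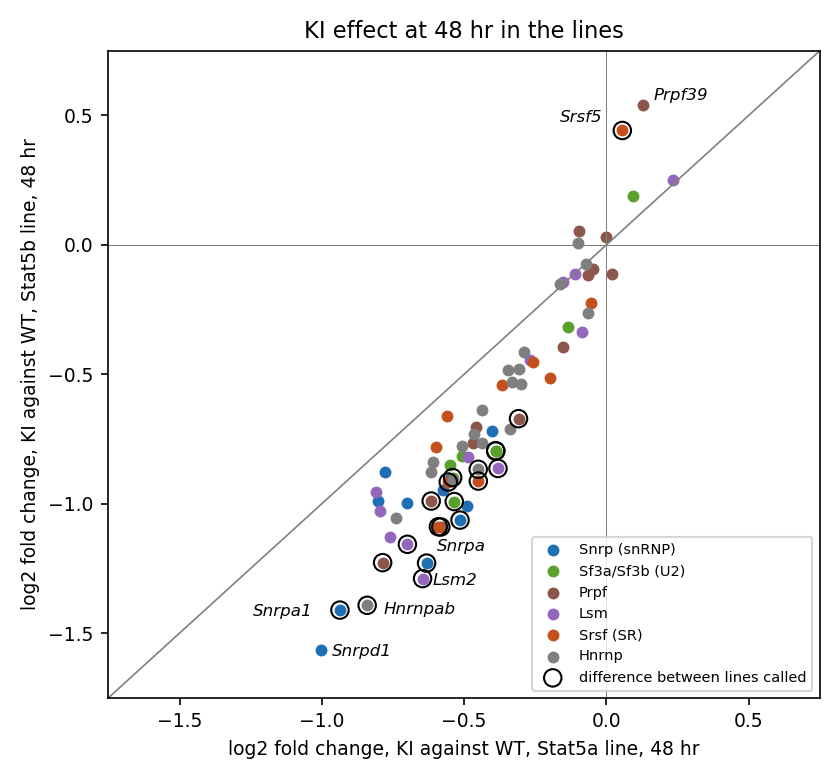
Each point is 1 of the 74 genes, with its log2 fold change of KI against WT at 48 hr in the *Stat5a* line on the x axis and in the *Stat5b* line on the y axis, coloured by symbol stem. Circled genes passed the test of the difference between lines. Of the 74 points 65 lie below the diagonal of equal effect, and *Snrpd1* is lowest at −1.002 and −1.56. Of all 15566 genes tested, which are not plotted, 7816 had a positive difference.

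Genes that read cell division and cells other than CD8+ T cells moved with these comparisons. The summed RPKM of 12 proliferation genes, led by *Pcna*, was 1598 to 1756 in WT and 1015 to 1154 in KI cells at 48 hr in the *Stat5a* line, and 1766 to 1871 against 570 to 816 in the *Stat5b* line. In WT cells all 12 rose at 24 hr and at 48 hr in both lines. Markers of B, myeloid and erythroid cells fell over the same WT comparison, with all 8 B cell genes (medians −2.72 and −3.05 at 48 hr), 10 of 11 myeloid (−3.77 and −4.56) and all 6 erythroid genes (−5.01 and −3.72) lower at 48 hr in the *Stat5a* and *Stat5b* lines. The CD4 T cell sum was also lower at 48 hr in both. The sum of 4 NK cell markers, led by *Klre1*, rose instead. It was 6.49 to 10.0 RPKM at 0 hr and 34.2 to 42.5 at 48 hr in WT cells of the *Stat5a* line. In the *Stat5b* line it was 10.7 to 15.3 and 32.4 to 48.3. The erythroid genes *Hba-a1* and *Hba-a2* had identical values in every comparison, so they are not separate readings. All 12 proliferation genes were lower in KI at 24 hr in both lines, and 11 and 12 of them at 48 hr. Of 8 markers of CD8+ T cells, 3 in *Stat5a* KI and all 8 in *Stat5b* KI were lower at 0 hr (medians −0.29 and −0.35), and none was higher. At 48 hr 6 were higher in each KI line, while *Thy1*, the most abundant in WT, was lower in *Stat5b* KI (−0.60, adjusted p 0.0050). Their sums at 48 hr came to 2052 to 2185 RPKM in WT and 2410 to 2648 in KI cells of the *Stat5a* line, and to 2038 to 2073 and 2265 to 2526 in the *Stat5b* line.

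Summed markers of most other cell types were higher in the KI cultures. Of the single markers at 48 hr, all 8 of B cells, 10 and 11 of 11 myeloid, 2 and 3 of 3 CD4 T cell and 0 and 6 of 6 erythroid genes were higher by edgeR in *Stat5a* and *Stat5b* KI. The 8 B cell markers, led in KI cells by *Cd79a*, summed to 13.6 to 40.0 RPKM in WT and 102 to 122.1 in KI cells of the *Stat5a* line, and to 11.7 to 13.9 and 126.5 to 132.5 in the *Stat5b* line. The 11 myeloid markers in the files (of 12 listed) were led by *Lyz2* in KI cells and by *Cd68* in WT cells. They gave 3.78 to 9.38 RPKM against 27.4 to 74.7, and 3.5999 to 5.29 against 72.4 to 112.2. Erythroid markers, led in KI cells by *Hbb-bs*, gave 6.40 to 8.02 against 17.9 to 22.5, and 4.71 to 8.27 against 110.8 to 206. CD4 T cell markers were at 3.89 to 4.92 against 10.7 to 11.7, and at 3.003 to 3.69 against 15.5 to 16.1, with *Cd4* the most abundant in KI. The 4 NK cell markers were divided. *Klre1* (−1.24 and −1.68) and *Klrb1c* (−0.66 and −1.38) were lower in KI and *Ncr1* (0.85 and 2.05) was higher in both lines, and *Klra8* was higher in *Stat5b* KI (1.04) and missed the threshold in *Stat5a* KI (0.58, adjusted p 0.19). Their sums, led in WT by *Klre1*, were at 34.2 to 42.5 against 26.7 to 28.2 and at 32.4 to 48.3 against 20.2 to 25.6. The B cell, myeloid and CD4 T cell sums were higher in KI at 0 hr too. B cell markers summed to 59.1 to 165 RPKM in WT and 252 to 312 in KI cells of the *Stat5a* line, and to 57.5 to 65.5 against 232.5 to 239.5 in the *Stat5b* line. CD4 T cell markers gave 9.90 to 18.2 against 22.9 to 25.5, and 9.39 to 11.5 against 19.4 to 26.7, with 2 of 3 called higher in each line. By edgeR 3 of 8 B cell, 0 of 11 myeloid and 0 of 6 erythroid markers were higher in *Stat5a* KI at 0 hr, and 8, 9 and 6 in *Stat5b* KI. Of the proliferation genes 0 and 8 of 12 were higher at 0 hr in *Stat5a* and *Stat5b* KI. At 24 hr the B cell sums were 26.7 to 87.6 against 174 to 219 in the *Stat5a* line and 26.0 to 32.7 against 174 to 202 in the *Stat5b* line. The myeloid gene *Trem2* was listed at 0 in 24 of 47 libraries, and no B cell, CD4 or NK marker was at 0 in any. The part of division and of these other cells in the changes of the set, between times or genotypes, was not tested.

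**Figure D4:**
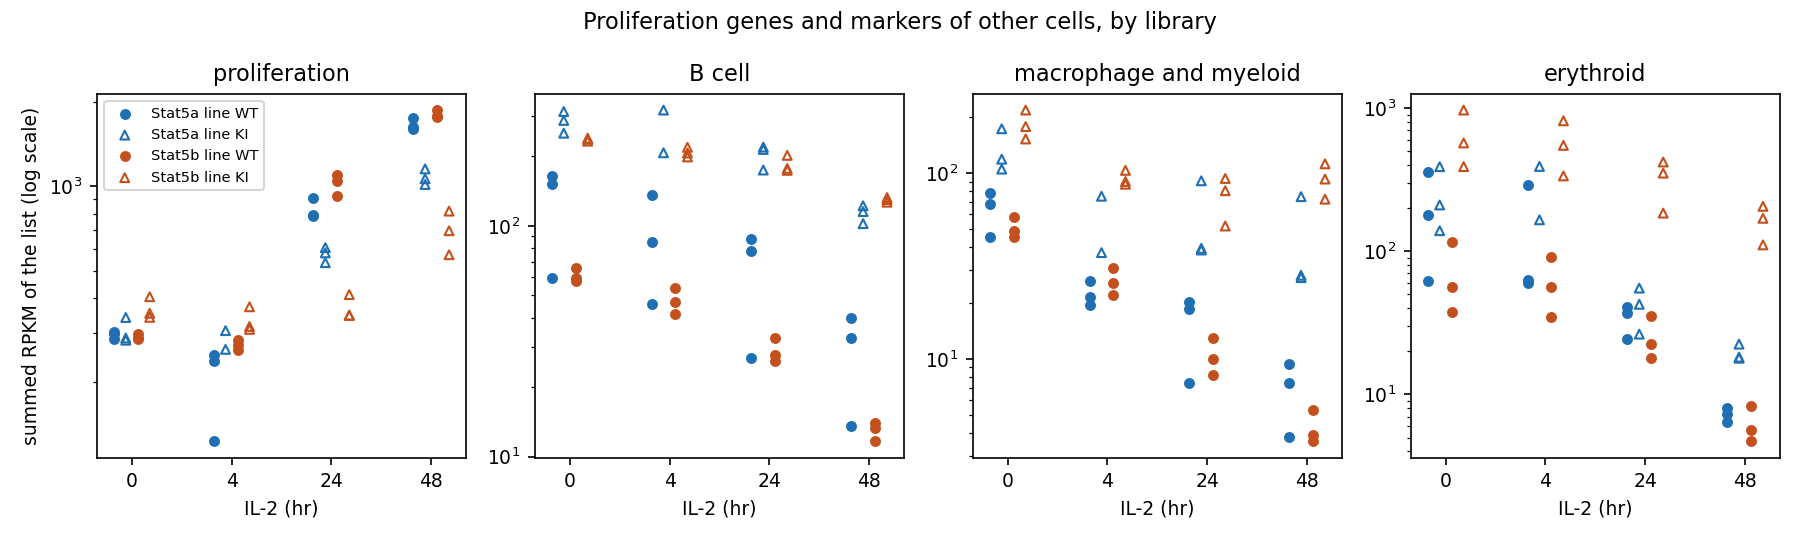
The summed RPKM of 4 gene lists is plotted for every library on a log scale against hours of IL-2, with filled circles for WT and open triangles for KI. At 48 hr the KI libraries lie below WT for proliferation genes and above WT for the B cell, myeloid and erythroid lists in both lines.

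Transcripts of 1 gene that differ by an exon or part of one gave a reading of transcript choice within the set. Reads were counted by the authors for each RefSeq transcript, so for 16 genes with 20 such segments the reads of the segment could be taken as the difference between a transcript with it and one without it. The segment was a whole exon in 11 cases and part of an exon in 9. They are given as reads per base in the segment, in percent of the reads per base in the transcript without it. This relative coverage is not an inclusion level and can exceed 100%, and reads of unspliced RNA also count. With 3 libraries against 3 an exact permutation test cannot go below 0.1, so no test was run. Segments of genes outside the set are not given, so the counts below describe these 20 segments and cannot be compared with all genes. In WT cells of both lines 7 segments, in 6 genes (*Srsf1*, *Srsf3*, *Srsf5*, *Srsf7*, *Hnrnpa2b1* and *Hnrnpd*), had lower relative coverage at 48 hr than at 0 hr with no overlap. The 2 segments in *Srsf5* are part of an exon and cover nearly the same bases, so they are not separate readings. One in *Hnrnpab* had higher coverage, at 44.4% to 46.1% and 68.6% to 76.5% in the *Stat5a* line. In KI cells at 48 hr relative coverage was higher than in WT without overlap in both lines for *Hnrnpa2b1*, *Srsf1*, *Srsf3*, *Srsf7* and *Srsf9*, the last on 4 to 36 reads a library.

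The poison exons of *Srsf3* and *Srsf7* are shown because these values turn on them. Each is printed from its first base, in RefSeq's annotation of GRCm38.p6 and 5′ to 3′ on the gene's strand, up to the first stop codon in the reading frame of the coding transcript, which is in capitals.
Srsf3, chr17:29039454-29039487, plus strand: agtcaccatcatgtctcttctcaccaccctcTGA
Srsf7, chr17:80205054-80205081, minus strand: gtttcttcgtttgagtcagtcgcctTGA

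The *Srsf3* exon spans 456 bases (chr17:29039454-29039909) and that of *Srsf7* spans 460 (chr17:80204622-80205081), and in both the stop lies within the first 34 bases. Relative coverage of the *Srsf3* exon was 172%, 204% and 161% at 0 hr in WT cells of the *Stat5a* line and 22.1%, 21.1% and 21.9% at 48 hr. *Stat5a* KI cells at 48 hr had 37.1%, 41.7% and 44.8%. WT values of the *Stat5b* line were 197%, 193% and 176% at 0 hr and 20.5%, 21.1% and 20.9% at 48 hr, and the KI values at 48 hr were 57.4%, 46.0% and 59.4%. Each KI library at 48 hr thus lay between the WT libraries of 0 hr and 48 hr. In replicate 2 of WT at 4 hr in the *Stat5a* line the value was 341%, the highest of all.

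The *Srsf7* exon had 205%, 235% and 222% at 0 hr and 52.7%, 45.5% and 48.8% at 48 hr in WT cells of the *Stat5a* line, and 78.2%, 78.7% and 82.0% in *Stat5a* KI cells at 48 hr. WT cells of the *Stat5b* line had 48.4%, 49.6% and 48.6% at 48 hr and the KI cells 113.3%, 102.6% and 106.5%. At 0 hr the *Srsf7* exon had 225%, 217% and 208% in WT and 200%, 203% and 197% in KI cells of the *Stat5b* line. At 48 hr a segment of 196 bases inside an exon of *Srsf1* (chr11:88049216-88049411), which another transcript splices out, behaved alike. It went from 177%, 150.8% and 162% to 29.6%, 26.1% and 24.1% in WT cells of the *Stat5a* line, with 50.8%, 54.5% and 53.8% in KI cells at 48 hr. The *Stat5b* KI cells had 80.1%, 77.6% and 83.1% against 26.3%, 24.9% and 23.9% in WT. As a share of the reads of a library, the *Srsf3* segment was lower at 48 hr in WT cells by 2.07 and 2.05 on the log2 scale while the whole gene rose, and exceeded WT in KI cells by 0.43 and 0.59.

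**Figure D5:**
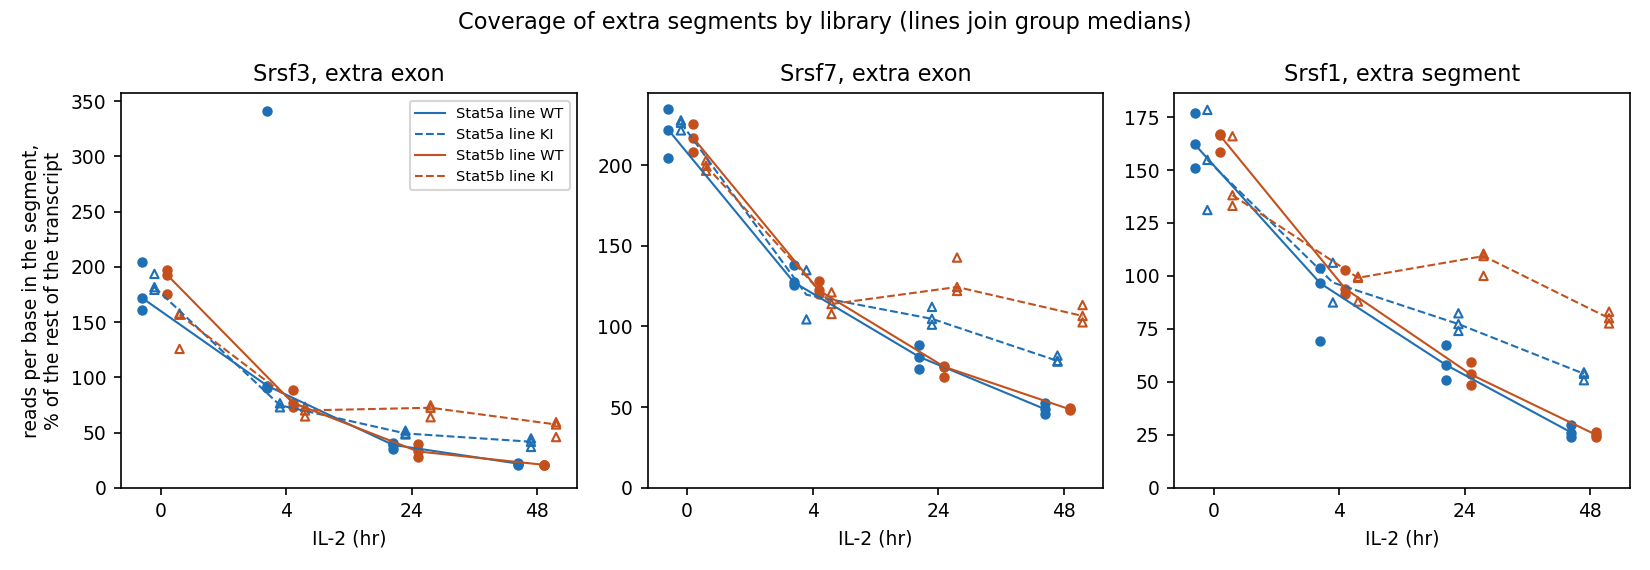
Reads per base in the extra segment of *Srsf3*, *Srsf7* and *Srsf1*, in percent of the rest of the transcript, are plotted for every library against hours of IL-2, with lines through group medians. WT libraries (filled) end lowest at 48 hr, near 21% for *Srsf3*, and the KI libraries (open) stay above them in both lines.

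The choice of transcript bears on these genes. With the longest transcript, which holds the poison exon, *Srsf7* (chr17:80200080-80207369) was not called in WT cells at 48 hr (log2 fold change 0.14 and 0.15, adjusted p 0.18 and 0.15). With the shortest transcript, without the exon, it rose (0.55 in both lines, adjusted p 4.0e-06 and 3.4e-06). *Srsf3* (chr17:29032660-29043372) rose with either, by 0.65 and 0.80 for the longest and by 0.98 and 1.16 for the shortest.

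*Hnrnpll* (chr17:80029487-80062268), which encodes the regulator of *Ptprc* exons, had 5.33, 5.78 and 5.90 RPKM at 0 hr and 16.2, 17.6 and 17.996 at 48 hr in WT cells of the *Stat5a* line. KI cells of that line had 12.5, 11.2 and 11.4 at 48 hr, and in the *Stat5b* line WT had 20.5, 20.6 and 20.9 and KI had 11.6, 12.9 and 11.1. The excess of reads on the *Ptprc* transcript with all variable exons, over one without them, was 4.29%, 4.69% and 3.76% at 0 hr and 5.31%, 4.81% and 3.88% at 48 hr in WT cells of the *Stat5a* line. In KI cells at 48 hr it was 5.17%, 5.39% and 5.91%. The *Stat5b* line gave 4.01%, 4.36% and 4.31% at 0 hr and 4.19%, 3.83% and 4.51% at 48 hr in WT, and 4.64%, 4.54% and 4.17% in KI cells at 48 hr. In both lines the values of WT at 0 hr and 48 hr overlapped, although those of *Hnrnpll* did not, and KI overlapped WT at 48 hr. At 4 hr WT cells of the *Stat5a* line had 4.93%, 7.02% and 4.81%, and those of the *Stat5b* line 5.06%, 4.94% and 4.51%, above every 0 hr library of the line. At 24 hr it had 5.17%, 5.601% and 4.66%, and 4.97%, 5.62% and 4.62%, which lay above 0 hr without overlap in the *Stat5b* line and overlapped it in the *Stat5a* line. The first exons of these *Ptprc* transcripts also differ, which adds to the excess.

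Promoter sequences from 250 bases before to 50 after a start site, with several start sites for some genes, were found for 63 of the 74 genes in RefSeq (GRCm38.p6). The E-box CACGTG, a palindrome and so the same on both strands, was present in 9 of the 63 (14.3%), against 8.09% of 27025 genes. The letters TTCNNNGAA, the form of a STAT site and also the same on both strands, were present in 5 (7.94%), against 9.55%. The E-box genes were *Snrpa*, *Hnrnpd*, *Hnrnpa3*, *Hnrnpf*, *Hnrnpm* and *Prpf3*, which rose in WT cells at 48 hr, and *Prpf39*, *Prpf40b* and *Hnrnph2*, which fell. The STAT letters were in *Hnrnpa2b1*, *Snrpg*, *Prpf31* and *Hnrnpr*, which rose, and in *Hnrnph1*, which fell. The 250 bases before the start of the transcripts described here are shown for *Snrpa*, with 2 E-boxes, and *Snrpg*, with 1 STAT match, as an example of each, on the gene's strand with the motif in capitals.
Snrpa, chr7:27196272-27196521, minus strand: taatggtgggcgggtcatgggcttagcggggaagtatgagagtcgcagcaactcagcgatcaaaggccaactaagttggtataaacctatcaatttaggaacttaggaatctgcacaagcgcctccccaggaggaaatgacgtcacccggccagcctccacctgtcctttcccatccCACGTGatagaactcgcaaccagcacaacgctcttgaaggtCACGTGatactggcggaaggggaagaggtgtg
Snrpg, chr6:86371290-86371539, plus strand: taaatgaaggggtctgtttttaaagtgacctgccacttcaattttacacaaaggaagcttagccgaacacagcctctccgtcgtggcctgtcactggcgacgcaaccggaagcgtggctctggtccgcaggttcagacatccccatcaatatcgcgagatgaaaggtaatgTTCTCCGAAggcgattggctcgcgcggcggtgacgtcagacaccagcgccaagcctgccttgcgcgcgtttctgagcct

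A match is a description of these letters and not a site of binding. The *Snrpa* E-boxes begin 73 and 32 bases before the start site, and the *Snrpg* match begins 79 before it. *Snrpa* rose by 1.41 and 1.43 in WT cells, and *Snrpg*, a gene of the Sm ring, by 0.38 and 0.47.

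Other genes of splicing, from a list of 79 outside these stems, are given for comparison. In WT cells at 48 hr 47 rose and 17 fell in the *Stat5a* line (median 0.31), and 47 rose and 16 fell in the *Stat5b* line (0.31), where 34.1% and 33.1% of all genes rose and 37.7% and 36.8% fell (medians −0.12 and −0.13). At 24 hr 34 rose and 14 fell, and 32 rose and 17 fell, against 30.1% and 28.9%, and 29.5% and 30.1%, of all genes. In KI cells at 48 hr 45 were lower and 5 higher in the *Stat5a* line (median −0.24), and 54 were lower and 6 higher in the *Stat5b* line (−0.40), where 22.8% and 30.5% of all genes were lower and 21.5% and 33.1% higher (medians 0.04 and 0.10). At 24 hr 15 and 50 were lower, and 2 and 5 higher, against 9.01% and 26.3%, and 9.49% and 24.1%, of all genes.

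A few genes with large values in that list, chosen after they were seen and not standing for a group, follow. *Gemin4*, a subunit of the SMN complex that loads Sm rings, had 1.22, 1.25 and 1.66 RPKM at 0 hr and 15.8, 18.3 and 16.9 at 48 hr in WT cells of the *Stat5a* line, and 10.9, 10.1 and 9.92 in KI cells at 48 hr. *Gemin6*, of the same complex, rose by 2.86 and 3.16 on the log2 scale, and *Prmt5*, which methylates Sm proteins, by 1.79 and 1.88. In KI cells at 48 hr the log2 fold changes were −0.87 and −1.46 for *Prmt5* and −0.96 and −1.66 for *Gemin6*. *Clk1*, a kinase of SR proteins, had 147.8, 160 and 144.8 RPKM at 0 hr and 28.3, 25.2 and 32.2 at 48 hr in WT cells of the *Stat5a* line, and 48.6, 47.8 and 52.3 in KI cells. Its fall was 2.61 and 2.41 on the log2 scale, and it was higher in KI cells by 0.74 and 1.24. *Clk4*, its paralog, gave −1.39 and −1.24 with IL-2 and 0.44 and 0.75 in KI cells.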

How the data were processed

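Each RNA-seq library was prepared by the authors with an mRNA kit (100 ng RNA input) and sequenced on an Illumina instrument. Per the submitters' processing notes, TopHat2 (v2.0.11), Bowtie2 (v2.2.6), SAMtools (v0.1.8), bedtools (v2.25.0) and edgeR were used with mm10 (GRCm38). The authors deposited a read count and an RPKM value for each of 31682 RefSeq transcripts in each library; the counting program and strand setting are not given in the sources used here. Reads on exons that transcripts share count in each of them. The longest transcript per symbol was kept.

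Counts were tested with edgeR (v4.0.16; R v4.3.3), TMM factors, filterByExpr (minimum count 10) and glmQLFTest over 47 libraries in 16 groups, with Benjamini-Hochberg adjustment over 15566 genes. An SE is the log2 fold change divided by the square root of F. The procedure was tested on simulated data. DESeq2 (v1.42.0) and limma (v3.58.1) on log2(RPKM + 1) and log2(RPKM + 0.1), for genes of at least 1 RPKM in 3 libraries, were alternatives, as were no filter, other size factors, only the groups compared, all 48 libraries, the shortest transcript, a replicate block and leaving out each library. The members and gene lists were chosen with earlier results of these data known.

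A floor of 3 counts equals 0.0498 to 0.173 CPM, and covers counting error only. No pair of replicate libraries agreed within sampling noise. Deviations from group means were compared by replicate number between 0 hr and later times in WT, and between genotypes at each time. Among these pairs of groups, every number correlated (r above 0.1) only in WT of the *Stat5a* line. There r was 0.21, 0.27 and 0.42 for 0 hr with 24 hr, and 0.17, 0.12 and 0.19 for 0 hr with 48 hr. Other pairs of groups were not compared, and the labels do not say what the numbers share.

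Genes were named by rule: the 3 most abundant of each stem, the 3 largest rises and falls among those called in each comparison, called genes against the majority direction where 5 or fewer, genes near the RPKM threshold, and *Hnrnpll*. A ChIP-seq sample of the series was not used here. Scripts used Python (v3.11.15), pandas (v2.3.3), numpy (v2.4.6) and matplotlib (v3.10.9). Sequences came from RefSeq.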

Additional observations from a re-analysis of the deposited data

Results flagged for a closer look

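The IL-2 response at 48 hr differed between KI and WT cells for 42 genes of the set in the *Stat5a* line and for 58 in the *Stat5b* line, and the KI effect at 48 hr differed between lines for 20, each by an interaction term in edgeR. Of all genes the difference in response (KI less WT) was negative and positive for 16.2% and 11.8% in the *Stat5a* line. In the *Stat5b* line the shares were 25.6% and 23.8%. The KI effect was more negative and more positive in the *Stat5b* line for 7.83% and 3.20%. In the *Stat5a* line the log2 difference in response was 0.30 for *Lsm14b*, −0.97 for *Snrpd1*, −0.85 for *Snrpa1* and −0.81 for *Hnrnpab*. In the *Stat5b* line it was 0.70 for *Srsf5*, 0.62 for *Prpf39*, 0.46 for *Lsm14b*, −1.71 for *Snrpd1*, −1.48 for *Snrpa1* and −1.47 for *Hnrnpab*. Between lines the difference in KI effect was 0.39 for *Srsf5*, −0.64 for *Lsm2*, −0.60 for *Snrpa* and −0.55 for *Hnrnpab*.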

How the results depend on the processing

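The number of genes called among the 74 was recomputed under 9 alternatives in 17 comparisons, and all but 22 counts stayed within 1.5 times of the reported one. Limma on log2(RPKM + 1) and log2(RPKM + 0.1) gave 36 and 35 genes for *Stat5a* KI at 4 hr, 12 and 12 for *Stat5a* KI at 24 hr, 0 and 0 for *Stat5b* KI at 0 hr, 1 and 1 for *Stat5b* KI at 4 hr, and 9 and 7 for the difference between lines. Fitting only the groups compared gave 15 for WT at 4 hr in the *Stat5a* line, 0 and 41 for *Stat5a* KI at 4 hr and 24 hr, and 45 for the difference between lines. With all 48 libraries the counts were 29 and 17 for WT at 4 hr in the *Stat5a* and *Stat5b* lines, 9 for *Stat5a* KI at 24 hr, 0 and 1 for *Stat5b* KI at 0 hr and 4 hr, 22 for the *Stat5a* interaction and 2 for the difference between lines. Without the filter 6 were called for *Stat5b* KI at 4 hr. Leaving out 1 library gave, at 4, 24 and 48 hr, 43 to 51, 47 to 50 and 63 to 64 for WT of the *Stat5a* line, and 27 to 34, 53 to 56 and 62 to 64 for WT of the *Stat5b* line. At 0, 4, 24 and 48 hr it gave 0 to 0, 0 to 35, 13 to 28 and 55 to 57 for *Stat5a* KI, and 2 to 7, 5 to 10, 55 to 57 and 60 to 65 for *Stat5b* KI. The interactions gave 39 to 47 and 57 to 59, and the difference between lines 14 to 22. With 1 or 2 libraries left in a group the spread was shared over all groups. For *Stat5a* KI at 4 hr the count was 3 without WT replicate 2, 35 and 32 without WT replicates 1 and 3, and 0 without KI replicate 1. The replicate block, which pairs libraries by number, gave 65 in WT of the *Stat5a* line at 48 hr, 56 and 63 for *Stat5a* and *Stat5b* KI at 48 hr and 21 for the difference between lines, and moved no count by more than 1 gene. Of 1278 alternative values for 80 gene results, 1184 kept their side of the threshold, 94 lost it and 0 changed sign. The causes of these shifts were not tested. Shares of all genes called under the alternatives are not given, here or above. Those counts therefore do not compare the set with all genes.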
